A study of Homo sapiens with 8 samples.

Results

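Cas9 knockout of the long non-coding RNA HOTSCRAMBL (HOTSCRAMBL KO) was compared with Cas9 editing of AAVS1 (AAVS1 KO) in RNA from a probe-based chromatin pull-down (ChIRP, chromatin isolation by RNA purification) from human acute myeloid leukaemia cells on day 3 after editing. The libraries were chosen by their labels and made up 4 of the 8 in the series. Each group held 1 library labelled MOLM13 (replicate 1) and 1 labelled OCI-AML4 (replicate 2), so replicate numbers paired the groups within a labelled line. Both lines are established cultures from acute myeloid leukaemia, and both groups had received Cas9 ribonucleoprotein (nuclease preassembled with guide RNA) by nucleofection. AAVS1, a site within PPP1R12C, served as the cut control, labelled as wild type in genotype. The remaining 4 libraries were the same targets treated with a cytosine base editor (CBE), and entered the same model, where they add to the estimate of the spread behind the knockout calls and serve to test where the knockout differed. Whether the edited cells were a pool or a clone, and the share of edited alleles, are not given in the sources used here. The sample fields name only leukaemia and AML cells, and the line stands in the title alone. Whether the labels mark different lines was not tested, so agreement of the pairs cannot be taken as replication across lines.

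In ChIRP, biotinylated DNA probes are hybridised to cross-linked, sonicated lysate, and the RNA that comes down with the probes on streptavidin beads is recovered. Long non-coding RNAs act without being translated, many of them at chromatin, and in acute myeloid leukaemia the transcription factor HOXA9, its cofactor MEIS1 and the MLL complexes upstream of them are known for keeping cells immature and dividing. The p53 pathway, which responds to DNA breaks, is known for arresting the cell cycle and triggering apoptosis. The probes' target is not stated in the labels and no input library is named there, so every value below is an amount of RNA in a pull-down and not an enrichment or a total RNA level. In such bulk samples, fewer cells of a type and less RNA per cell cannot be told apart.

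Total counts were 24560289 and 23531833 in AAVS1 KO and 20548300 and 24099962 in HOTSCRAMBL KO, within a range of 20548300 to 37970163 over the series. The target could not be checked by level, because the table holds 0 genes named HOTSCRAMBL. PPP1R12C (ENSG00000125503, chromosome 19, 55090914 to 55117637, GRCh38), the gene holding the control site, stood at 365 and 387 CPM in AAVS1 KO and 235 and 242 CPM in HOTSCRAMBL KO. It was lower in both HOTSCRAMBL KO libraries (log2 fold change −0.66, SE 0.118, adjusted p 3.64e-04), and the call was lost without AAVS1 KO replicate 2 (adjusted p 0.0759). All 8 myeloid leukaemia markers were detected, with sums of 1957 and 1962 CPM (read counts scaled to library size, after TMM) in AAVS1 KO and 2063 and 2225 in HOTSCRAMBL KO. Without LYZ, the 1 marker among them that was higher in both knockout libraries than in both controls, the sums were 1837 and 1821 against 1557 and 1523. Summed markers of T, B, natural killer, erythroid, megakaryocyte, fibroblast and epithelial cells lay between 0 and 27.6 CPM per library. The marker lists were a check of the labels and do not tell one myeloid line from another.

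Of 24057 genes tested, 2108 passed an adjusted p under 0.05 (8.76%), 1085 of them higher (4.51%) and 1023 lower (4.25%) in HOTSCRAMBL KO. Each of the 2108 moved the same way in the MOLM13 pair and in the OCI-AML4 pair. The call itself, made from these libraries, favours such genes, so the agreement is no independent support. Higher genes moved further: their median log2 fold change was 1.33 against −0.80 for lower genes, and 292 rose more than 4-fold while 93 fell more than 4-fold. Among the 7233 genes with a mean of at least 20 CPM, 776 rose (10.7%) and 859 fell (11.9%). Directions are relative to TMM scaling. Without it the median of all genes shifted from −0.01 to −0.17 on the log2 scale, and 840 of 2535 calls (33.1%) were higher in place of 51.5%. The p-values measure the spread between these libraries, with n = 2 per group and 1 per labelled line. Leaving out 1 of the 4 knockout libraries left between 677 and 1030 calls, the fewest without AAVS1 KO replicate 1. Leaving out 1 of the 4 base editor libraries left between 1640 and 1674, and a fit of the 4 knockout libraries alone called 780.

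**Figure D1:**
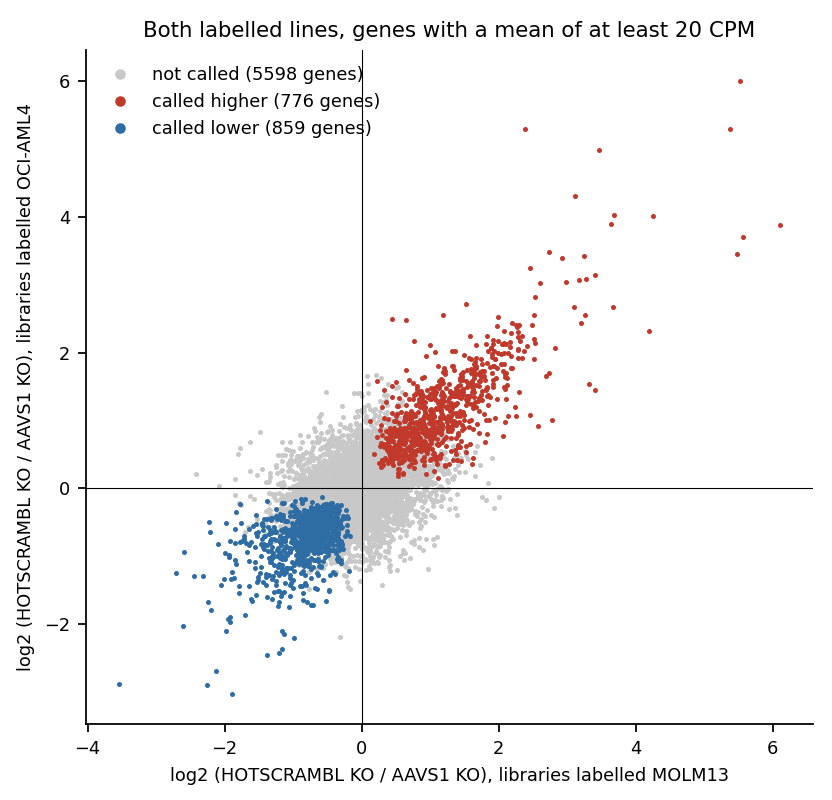
Log2 ratio of HOTSCRAMBL KO to AAVS1 KO in the libraries labelled MOLM13 (horizontal axis) and OCI-AML4 (vertical axis), 1 point for each of the 7233 genes with a mean of at least 20 CPM. Genes called higher (776) lie in the upper right and genes called lower (859) in the lower left, and the ratios of the 2 pairs had a Pearson r of 0.711 across genes.

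The plot of both pairs shows how far the labelled lines moved together. Across genes, which are not independent replicates, r was 0.884 among the 2108 called genes and 0.711 among genes of at least 20 CPM, and the pairs share no library. The first value is raised by the selection of called genes.

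Among the gene lists, those of ribosomal proteins had the largest share of members called higher. Of 47 proteins of the large ribosomal subunit tested, 44 rose and 0 fell, with a median log2 fold change of 1.48, and of 33 proteins of the small subunit, 29 rose and 0 fell, with a median of 1.67, where the median over all genes was −0.01. The mRNAs of these proteins share a run of pyrimidines at their 5′ end, the TOP motif, through which mTORC1 is known to control their translation. Start-site windows are shown to let this feature be read beside the response: 30 bases before and 20 after the RefSeq start (GRCh38.p14), with any run of CTTTCC, any of CTTTTC, any of CTTTCT, any of CTCTTT or any of CCTTTC from 10 bases before to 20 after the start in capitals.
RPS27, chr1:153990732-153990781, plus strand: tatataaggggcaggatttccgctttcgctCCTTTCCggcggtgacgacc
RPS6, chr9:19380217-19380266, minus strand: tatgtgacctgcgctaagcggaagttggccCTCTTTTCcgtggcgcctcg
TPT1, chr13:45341164-45341213, minus strand: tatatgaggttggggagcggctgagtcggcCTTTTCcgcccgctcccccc
RPL41, chr12:56116603-56116652, plus strand: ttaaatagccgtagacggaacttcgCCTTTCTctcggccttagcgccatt
EEF1A1, chr6:73521013-73521062, minus strand: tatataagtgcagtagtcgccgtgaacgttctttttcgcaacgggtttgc
EIF4G1, chr3:184314576-184314625, plus strand: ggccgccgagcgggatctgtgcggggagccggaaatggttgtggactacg
RPS27, RPS6, TPT1 and RPL41 rose by log2 fold changes of 3.02, 1.80, 1.63 and 0.76, with the letters in their windows. Of genes without the letters, EEF1A1 rose by 1.46, EEF2 by 1.40 and GAPDH by 1.69, while EIF4G1, an initiation scaffold, was at −0.19 (adjusted p 0.318). The starts of EEF1A1 and EEF2 are themselves runs of pyrimidines that these letters do not match, so lacking the letters is not lacking the motif. With 1 library left out, a call was lost for RPL41 without AAVS1 KO replicate 1, AAVS1 KO replicate 2 or HOTSCRAMBL KO replicate 2 (highest adjusted p 0.159).

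On the gene's strand the letters stood in 36 of 64 windows of ribosomal protein genes (56.2%), 9 of 38 of translation factors (23.7%), 5.86% of other genes called higher, 3.79% of genes called lower and 4.57% of 12372 windows of genes tested. On either strand the last share was 7.24%, and motifs that overlap were counted once per window. Within ribosomal proteins, 33 of 36 with the letters rose (91.7%, median 1.51) and 26 of 28 without them (92.9%, median 1.57). Within translation factors, 5 of 9 with the letters rose (55.6%) and 6 of 29 without them (20.7%), shares that were not tested. Among other genes, 7.5% of those with the letters and 5.33% of those without rose. A match describes these letters only, in windows found for part of the genes. Genes without a match can still start with a run of pyrimidines, so the shares do not compare genes with and without the motif.

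RPL8, a large-subunit protein near the peptidyl transferase centre, stood at 978 and 1363 CPM in AAVS1 KO and 5511 and 7214 CPM in HOTSCRAMBL KO. Both knockout libraries lay above both controls (log2 fold change 2.45, SE 0.0782, adjusted p 2.63e-17). RPLP2, of the acidic stalk that recruits elongation factors, had 629 and 615 CPM in AAVS1 KO and 2837 and 2736 CPM in HOTSCRAMBL KO (log2 fold change 2.16, SE 0.0998, adjusted p 3.27e-14). RPS18, a small-subunit protein, had 126 and 142 CPM in AAVS1 KO and 602 and 750.4 CPM in HOTSCRAMBL KO (log2 fold change 2.33, SE 0.119, adjusted p 1.75e-13). These genes showed no overlap between the groups, and the libraries of a group differed far less than the groups did. Called genes taken in order of p-value, here and below, tend to separate the groups by that choice. Their separation describes the values and is no further support. RPS27 had the largest rise of the small subunit, from 28.1 and 35.6 to 222 and 294 CPM. The 3 members of the large subunit and 4 of the small that did not pass included RPL22, at 42.2 and 64.4 against 65.2 and 74.6 CPM (log2 fold change 0.40, adjusted p 0.298), and RPS15A, at 51.3 and 54.8 against 84.1 and 73.9 CPM (log2 fold change 0.57, adjusted p 0.0644). Reads that fit several places were not counted, so ribosomal protein genes with near-identical pseudogenes are uncertain in level. Leaving out 1 knockout library left 39 to 43 calls in the large subunit and 27 to 29 in the small.

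Among translation factors, 7 of 10 elongation factors rose and 1 fell (median 1.10), and 9 of 37 initiation factors rose and 2 fell (median 0.26). EEF1A1, which delivers aminoacyl-tRNA, stood at 723 and 865 CPM in AAVS1 KO and 1910.4 and 2459 CPM in HOTSCRAMBL KO (log2 fold change 1.46, SE 0.0838, adjusted p 1.35e-12). EEF2, which moves the ribosome along, stood at 1695 and 2093 CPM in AAVS1 KO and 4405 and 5576 CPM in HOTSCRAMBL KO (log2 fold change 1.40, SE 0.0743, adjusted p 3.28e-13). Both rose in both pairs with no overlap. EEF1B2, an exchange factor for EEF1A1, rose with a log2 fold change of 2.06, TPT1 with 1.63 and NACA, of the nascent chain complex, with 0.98. EIF3H rose (1.09) while EIF3A, the large scaffold of the same initiation complex, fell (−0.63). EEF1D, the partner of EEF1B2, fell from 436 and 471 to 331 and 293 CPM (log2 fold change −0.54), and its call was lost without AAVS1 KO replicate 2 or HOTSCRAMBL KO replicate 2 (highest adjusted p 0.112). Between 10 and 11 translation factors were called higher without 1 knockout library, the fewest without AAVS1 KO replicate 1. Of 55 proteins that build ribosomes, 3 rose (5.45%) and 6 fell (10.9%), with a median of −0.05, and fewer were called without 1 knockout library. The shares were 4.51% and 4.25% over all genes, and 10.7% and 11.9% among genes of at least 20 CPM. The latter are nearer the list's median level of 75.7 CPM, so its share of falls was near that of genes of its level. Nucleolin, NCL, fell from 1481 and 1353 to 1029 and 1009.7 CPM (log2 fold change −0.47, adjusted p 2.19e-04), a call lost without AAVS1 KO replicate 1 (adjusted p 0.0725).

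**Figure D2:**
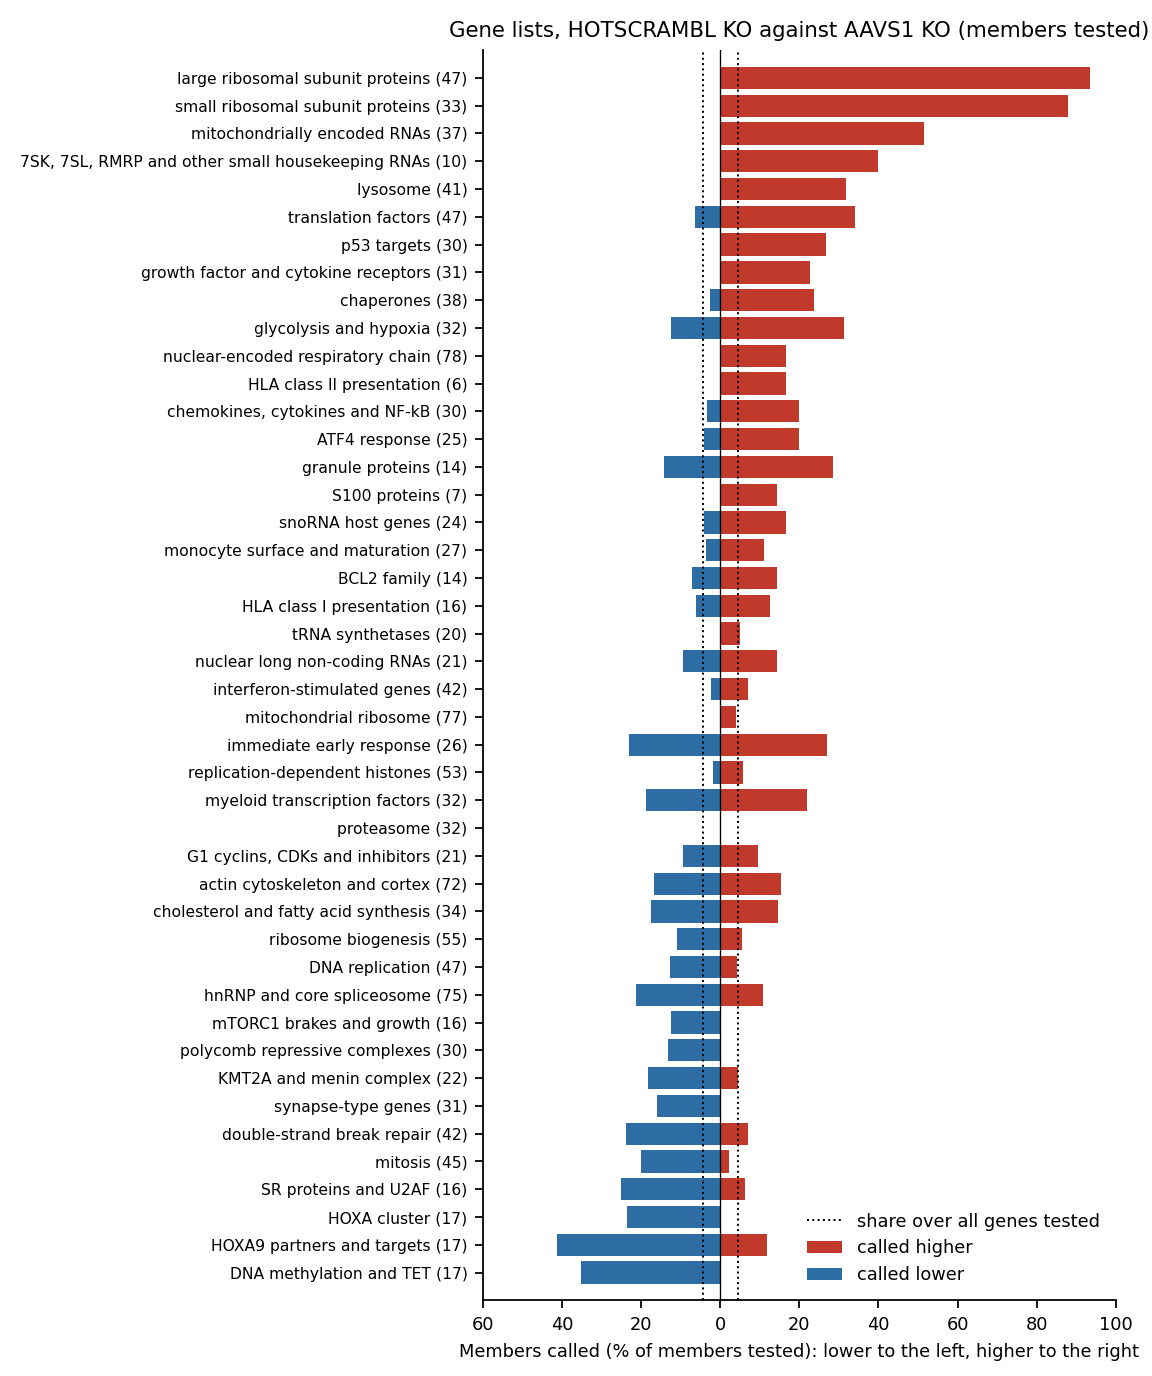
Share of tested members called higher (red, to the right) and lower (blue, to the left) in HOTSCRAMBL KO for each gene list, in percent, with the number of members tested in brackets and dotted lines at the shares over all genes tested (4.51% higher, 4.25% lower). Both ribosomal subunits, mitochondrially encoded RNAs, the lysosome and p53 targets hold calls to the right only, and DNA methylation enzymes, the HOXA cluster and synapse-type genes to the left only.

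The plot of gene lists sets the groups side by side. With the lists ordered by the difference of both shares, the ribosomal proteins stood at the top at 93.6% and 87.9% of members called higher, and the enzymes of DNA methylation lay at the bottom with 35.3% called lower. These shares describe lists of very unequal level, and lists of abundant mRNAs have more power than lists of rare ones. For lists at or above 20 CPM, the shares among genes of at least 20 CPM, 10.7% higher and 11.9% lower, are the nearer yardstick. DNA replication (4.26% higher, 12.8% lower), polycomb complexes (0% and 13.3%) and ribosome biogenesis (5.45% and 10.9%) had shares of falls near it.

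RNAs encoded by mitochondrial DNA took a larger share of counts in both HOTSCRAMBL KO libraries than in either control. They made up 6.77% and 6.84% of counts in AAVS1 KO and 10.7% and 11.9% in HOTSCRAMBL KO, while protein-coding genes of the nucleus went from 83.3% and 82.2% to 78.1% and 76.0%. Their mean share fell by 5.77 percentage points, and by 2.01 when mitochondrial genes were left out of the total. With 2 libraries against 2, the exact two-sided permutation test cannot go below p = 0.33, which is its value here, so the shares are given without a call. A share in 1 library had a 95% Wilson interval at most 0.036 percentage points wide, which covers counting error only. It treats the reads of a pair as independent and is therefore too narrow. Of 37 mitochondrially encoded genes tested, 19 rose and 0 fell (median log2 fold change 0.84), between 14 and 16 without 1 knockout library.

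Complex I is the entry point of the respiratory chain. All 7 of its mitochondrial mRNAs rose (median 1.06), as did 5 of the 6 other respiratory chain mRNAs (median 0.68), both ribosomal RNAs and 5 of 22 transfer RNAs. MT-ND5 stood at 8852 and 8504 CPM in AAVS1 KO and 28054 and 27476 CPM in HOTSCRAMBL KO (log2 fold change 1.68, SE 0.0581, adjusted p 4.64e-17). MT-ND4L stood at 618 and 729.9 CPM in AAVS1 KO and 1625 and 1882 CPM in HOTSCRAMBL KO (log2 fold change 1.38, SE 0.0863, adjusted p 5.18e-12). In both genes the knockout libraries lay more than 2-fold above the controls. MT-ND6 (log2 fold change 1.25) is encoded on the strand opposite the other complex I genes, and the counts used no strand, so its reads cannot be told apart from antisense RNA. MT-CO2, a cytochrome oxidase subunit, was the member that did not pass, at 1819 and 2158 CPM in AAVS1 KO and 1859 and 2491 CPM in HOTSCRAMBL KO (log2 fold change 0.12, adjusted p 0.405, and −0.038 without TMM). The large mitochondrial ribosomal RNA, MT-RNR2, rose from 26508 and 24391 to 36018 and 43707 CPM (log2 fold change 0.65), a call lost with limma-voom (adjusted p 0.115) and without the filter on low counts (adjusted p 0.188).

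**Figure D3:**
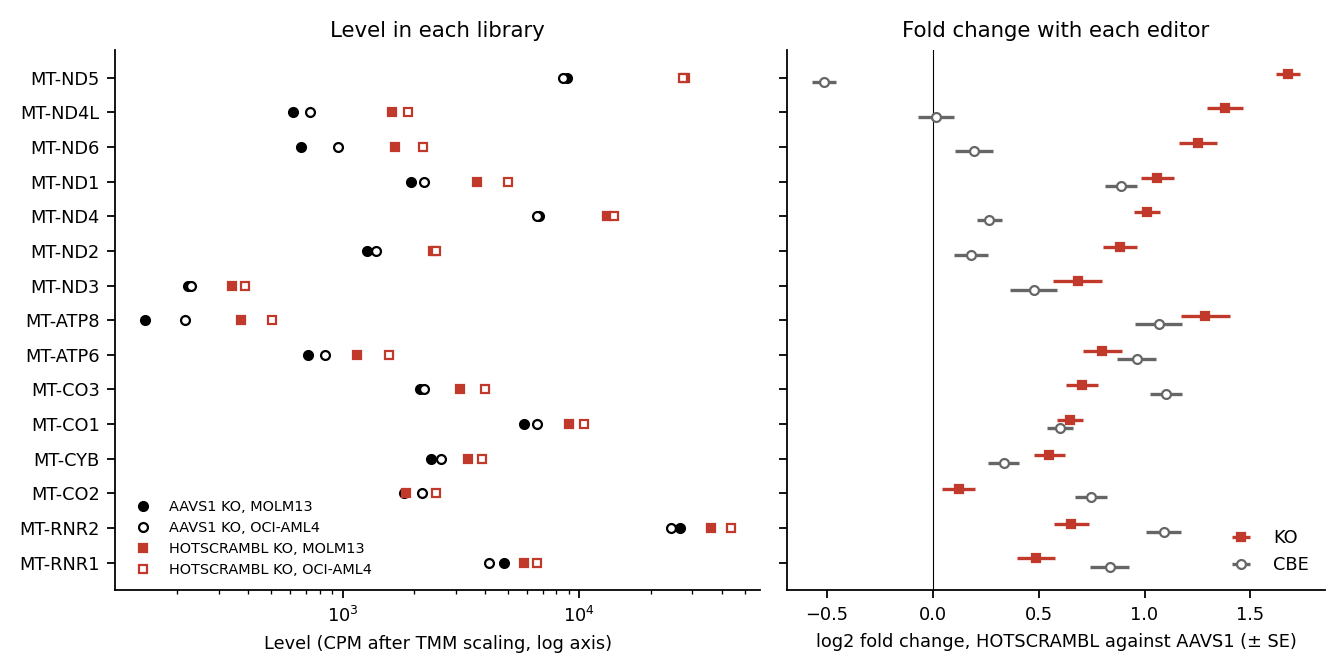
Left: level of each mitochondrially encoded mRNA and ribosomal RNA in CPM (log axis) in the 4 knockout libraries; right: log2 fold change of HOTSCRAMBL against AAVS1 with its SE for Cas9 knockout (filled) and the base editor (open). In the left panel the knockout libraries lie above the controls for every RNA but MT-CO2, and in the right panel the editors lie farthest apart for MT-ND5, at 1.68 and −0.51.

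The plot of mitochondrial RNAs shows that the order of genes differed between editors. With the base editor 3 of 7 complex I mRNAs rose and 1 fell, and the difference of the editors' effects was called for 5 of the 7, all larger with Cas9. The difference reached 2.19 for MT-ND5 (adjusted p 4.74e-16), 1.36 for MT-ND4L (adjusted p 5.99e-08) and 0.70 for MT-ND2 (adjusted p 2.70e-04). For MT-CO2 the base editor had the larger effect, with a difference of −0.63 (adjusted p 6.71e-04).

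Nuclear genes of the respiratory chain moved in the same direction in smaller numbers. Of 78 tested, 13 rose and 0 fell (median 0.55): 2 of 37 for complex I, 6 of 25 for complexes II to IV and 5 of 16 for ATP synthase. COX6B1, a cytochrome oxidase subunit, stood at 23.1 and 25.1 CPM in AAVS1 KO and 102 and 101 CPM in HOTSCRAMBL KO (log2 fold change 2.07, SE 0.224, adjusted p 2.00e-07). COX4I1 had a log2 fold change of 1.13, COX5B of 1.25 and ATP5F1D, of the ATP synthase, of 0.92. All of these separated the groups. Only 5 members were called without HOTSCRAMBL KO replicate 2. Proteins of the mitochondrial ribosome (3 of 77 higher, 0 lower, median 0.33, and 0 called without any 1 knockout library) and of the proteasome (0 of 32 called, median 0.28) had few or no calls.

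Among RNA classes, nuclear-encoded small RNAs other than snoRNAs and snRNAs went in share from 3.92% and 4.66% to 4.95% and 6.11%, and RMRP alone gave 1.79% and 3.07% in AAVS1 KO and 3.05% and 4.92% in HOTSCRAMBL KO. RMRP is the RNA of RNase MRP, which processes ribosomal RNA precursors. It stood at 17196 and 28848 CPM in AAVS1 KO and 32015 and 52972 CPM in HOTSCRAMBL KO (log2 fold change 0.89, SE 0.0778, adjusted p 4.88e-09). The control labelled OCI-AML4 nearly reached the knockout library labelled MOLM13, so the groups were close across labels and separate within each labelled pair. The call was lost without the replicate block (adjusted p 0.336). RNY1, a Y RNA bound by the Ro protein, rose from 10.3 and 13.8 to 31.5 and 37 CPM, and RNY3 from 1.49 and 3.28 to 12 and 17.1 CPM. RN7SL1, the RNA of the signal recognition particle, gave 17706 and 12664 CPM in AAVS1 KO and 17489.7 and 11070.0 CPM in HOTSCRAMBL KO (log2 fold change −0.11, adjusted p 0.343), a gene with near-identical copies. Calls were lost for RNY1 without AAVS1 KO replicate 1, AAVS1 KO replicate 2 or HOTSCRAMBL KO replicate 2 (highest adjusted p 0.164) and RNY3 without AAVS1 KO replicate 1, AAVS1 KO replicate 2 or HOTSCRAMBL KO replicate 2 (highest adjusted p 0.189).

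Small nucleolar and Cajal body RNAs, guides of ribosomal and spliceosomal RNA modification, had 18 of 184 genes higher and 3 lower (median 0.55). These were 9.78% and 1.63% of the class, against 4.51% and 4.25% of all genes tested. The class made up 0.516% and 0.708% of counts in AAVS1 KO and 0.692% and 0.805% in HOTSCRAMBL KO, which overlap. SNORD15B, which was picked after its values were seen, stood at 193 and 415 CPM in AAVS1 KO and 559 and 970.3 CPM in HOTSCRAMBL KO (log2 fold change 1.36). SNORA23, also picked after its values were seen, stood at 79.5 and 99.4 CPM in AAVS1 KO and 165 and 254 CPM in HOTSCRAMBL KO (log2 fold change 1.22). Both rose within each labelled pair, and for the first the control labelled OCI-AML4 reached near the knockout labelled MOLM13. SNORD15B was not called without the replicate block (adjusted p 0.317). Most snoRNAs lie inside introns of other genes, so they overlap their hosts in this count.

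Long non-coding RNAs kept their share, 3.61% and 3.75% against 3.81% and 3.64%. Of 4679 tested, 92 rose (1.97%) and 50 fell (1.07%), both under the 4.51% and 4.25% of all genes tested. MALAT1, an abundant RNA of nuclear speckles, stood at 745 and 646 CPM in AAVS1 KO and 1242 and 1198 CPM in HOTSCRAMBL KO (log2 fold change 0.81, SE 0.0889, adjusted p 2.46e-07). XACT, an RNA known for coating the active X chromosome in pluripotent cells, stood at 458 and 454 CPM in AAVS1 KO and 1498 and 1459 CPM in HOTSCRAMBL KO (log2 fold change 1.70, SE 0.092, adjusted p 3.28e-13). The knockout libraries of both genes lay above the controls without overlap. NEAT1, the scaffold of paraspeckles, went the other way, from 1575 and 1537 to 1223 and 1273 CPM (log2 fold change −0.32). MIR142HG, host of a microRNA of blood cells, fell from 165 and 358 to 74.7 and 149 CPM (log2 fold change −1.21). Its replicates differed by about the same size, and it lost its call without the replicate block (adjusted p 0.479). The snoRNA hosts GAS5 (1.14) and SNHG29 (1.00) rose, among 4 of 24 host genes higher and 1 lower (2 and 0 without AAVS1 KO replicate 1). A call was lost for NEAT1 without AAVS1 KO replicate 1, AAVS1 KO replicate 2, HOTSCRAMBL KO replicate 1 or HOTSCRAMBL KO replicate 2 (highest adjusted p 0.29), and also without the replicate block (adjusted p 0.0773).

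Called genes of the HOXA cluster on chromosome 7 were all lower in HOTSCRAMBL KO. Of 17 HOXA genes and cluster RNAs tested out of 18, 4 fell and 0 rose, 15 had a negative log2 fold change, and the median was −1.25. Whichever knockout library was left out, 2 were called. HOXA3 (ENSG00000105997, chromosome 7, 27106184 to 27152583) stood at 35.8 and 29.2 CPM in AAVS1 KO and 7.86 and 6.17 CPM in HOTSCRAMBL KO (log2 fold change −2.21, SE 0.38, adjusted p 1.93e-04). HOXA-AS2, antisense to the HOXA3 region, stood at 52.3 and 52.5 CPM in AAVS1 KO and 15 and 17.9 CPM in HOTSCRAMBL KO (log2 fold change −1.66, SE 0.278, adjusted p 1.40e-04). Each separated the groups by more than 2-fold, and their reads cannot be told apart where they overlap on opposite strands. HOXA5 went from 21.1 and 15.8 to 3.37 and 7.06 CPM and HOXA10-AS from 31.5 and 25.2 to 13.6 and 10.3 CPM, calls that were lost for HOXA5 without AAVS1 KO replicate 1, AAVS1 KO replicate 2, HOTSCRAMBL KO replicate 1 or HOTSCRAMBL KO replicate 2 (highest adjusted p 0.463) and for HOXA10-AS without AAVS1 KO replicate 1, AAVS1 KO replicate 2, HOTSCRAMBL KO replicate 1 or HOTSCRAMBL KO replicate 2 (highest adjusted p 0.205). HOXA9 itself stood at 41.6 and 27.8 CPM in AAVS1 KO and 16.1 and 20.6 CPM in HOTSCRAMBL KO, lower in both pairs without passing the test (log2 fold change −0.91, adjusted p 0.0773). HOXA10 was at 16.2 and 16.4 and 8.98 and 14.9 CPM (log2 fold change −0.43, adjusted p 0.623). All levels in the cluster were under 60 CPM, so counting error is large beside that of the ribosomal genes.

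Of 17 HOXA9 partners and targets tested, 7 fell and 2 rose (median −0.49), where between 1 and 4 were called lower without 1 knockout library, the fewest without AAVS1 KO replicate 1. MEIS1, the TALE cofactor of HOXA9, stood at 250.2 and 233 CPM in AAVS1 KO and 143 and 159.7 CPM in HOTSCRAMBL KO (log2 fold change −0.67, SE 0.135, adjusted p 0.00141). PBX3, another TALE cofactor, stood at 680.3 and 698 CPM in AAVS1 KO and 883 and 928 CPM in HOTSCRAMBL KO (log2 fold change 0.39, SE 0.0857, adjusted p 0.00281). The cofactors thus moved in opposite directions, each in both pairs. BCL2, an anti-apoptotic target, fell from 739.7 and 781 to 544 and 535 CPM (log2 fold change −0.49). ANGPT1, a ligand of the TIE2 receptor, was at 21.4 and 11.3 CPM in AAVS1 KO and at 0 and 0.0894 CPM in HOTSCRAMBL KO. There 1 library had no read and the other had 2, which can be the mates of 1 pair. ID2, an inhibitor of differentiation factors, rose from 14.5 and 23.8 to 62.2 and 65.8 CPM (log2 fold change 1.74). Calls were lost for MEIS1 without AAVS1 KO replicate 1, AAVS1 KO replicate 2 or HOTSCRAMBL KO replicate 1 (highest adjusted p 0.122), PBX3 without AAVS1 KO replicate 1, AAVS1 KO replicate 2 or HOTSCRAMBL KO replicate 2 (highest adjusted p 0.0869) and BCL2 without AAVS1 KO replicate 1 (adjusted p 0.0554), and PBX3 was also not called without TMM (adjusted p 0.095).

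Most chromatin regulators listed here were not called, and those called were lower with 1 exception. Of 22 genes of the MLL and menin complexes and their partners, 18.2% were lower and 4.55% higher. Among genes of at least 20 CPM, 11.9% were lower and 10.7% higher. DOT1L, the histone methyltransferase recruited by MLL fusion proteins, stood at 414 and 394 CPM in AAVS1 KO and 231 and 213 CPM in HOTSCRAMBL KO (log2 fold change −0.86, SE 0.109, adjusted p 2.21e-06). KAT6A, an acetyltransferase, stood at 828 and 706 CPM in AAVS1 KO and 1415 and 1104 CPM in HOTSCRAMBL KO (log2 fold change 0.71, SE 0.0849, adjusted p 9.77e-07) and was the 1 member of 22 that rose, beside 4 that fell (1 to 2 without 1 library, the fewest without AAVS1 KO replicate 2). DOT1L was lower and KAT6A higher in both knockout libraries. In the polycomb complexes, which silence HOX genes, 0 of 30 rose and 4 fell, none of which was called without AAVS1 KO replicate 1. DNA methylation enzymes and TET oxidases had 6 of 17 lower, 0 higher and 16 negative (median −0.34), with 1 to 2 called without 1 library, the fewest without AAVS1 KO replicate 1. DNMT1, the maintenance methyltransferase, went from 681 and 568 to 435 and 479 CPM (log2 fold change −0.44) and DNMT3B from 40.4 and 41.5 to 20.1 and 14.9 CPM (log2 fold change −1.24). Calls were lost for DNMT1 without AAVS1 KO replicate 1, AAVS1 KO replicate 2 or HOTSCRAMBL KO replicate 1 (highest adjusted p 0.308) and DNMT3B without AAVS1 KO replicate 1, AAVS1 KO replicate 2 or HOTSCRAMBL KO replicate 2 (highest adjusted p 0.16). WT1, which recruits a TET oxidase, is counted in that list and fell most among its called members (−1.96).

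Myeloid transcription factors were split, with 7 of 32 higher and 6 lower. CEBPB, a factor of emergency granulopoiesis and monocytes, stood at 41.6 and 50.1 CPM in AAVS1 KO and 133 and 143 CPM in HOTSCRAMBL KO (log2 fold change 1.60, SE 0.199, adjusted p 2.16e-06). CEBPA, required for the granulocyte-monocyte progenitor, stood at 140.0 and 128 CPM in AAVS1 KO and 275 and 263 CPM in HOTSCRAMBL KO (log2 fold change 1.00, SE 0.131, adjusted p 4.62e-06). Both rose without overlap of the groups. IRF8, a factor of monocytes and dendritic cells, went from 531 and 459.8 to 779 and 744 CPM, RUNX3 from 46.3 and 40.6 to 133 and 267 CPM and MYC from 333 and 441 to 669.6 and 724 CPM. Among factors that fell, GFI1, a repressor of the monocyte programme, stood at 319 and 359 CPM in AAVS1 KO and 214 and 207 CPM in HOTSCRAMBL KO (log2 fold change −0.69, SE 0.115, adjusted p 1.44e-04). RUNX1 (−0.60), ETV6 (−0.81), KLF6 (−1.17) and GATA2 (−1.06) also fell. Calls were lost for RUNX1 without AAVS1 KO replicate 1 (adjusted p 0.0897), ETV6 without AAVS1 KO replicate 2 (adjusted p 0.0774) and GATA2 without AAVS1 KO replicate 1 or HOTSCRAMBL KO replicate 2 (highest adjusted p 0.0664). Between 3 and 5 factors were called lower without 1 library, 3 of them without AAVS1 KO replicate 1.

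Granule proteins, stored by neutrophils and monocytes, moved in both directions. LYZ, lysozyme, stood at 120.0 and 141 CPM in AAVS1 KO and 506 and 702 CPM in HOTSCRAMBL KO (log2 fold change 2.20, SE 0.125, adjusted p 9.41e-13). CHI3L1, a chitinase-like protein of specific granules and macrophages, stood at 353 and 402 CPM in AAVS1 KO and 1028 and 1034 CPM in HOTSCRAMBL KO (log2 fold change 1.45, SE 0.0985, adjusted p 3.19e-11). AZU1, azurocidin of the primary granule, moved the other way, from 971 and 1007 to 525 and 547 CPM (log2 fold change −0.89, SE 0.0892, adjusted p 5.08e-08). In all 3 the libraries of each group lay close together and apart from the other group. ELANE, neutrophil elastase, went from 201 and 316 to 156 and 189 CPM (log2 fold change −0.57), and MPO was at 54.1 and 47 and 27.8 and 32.1 CPM without passing the test (log2 fold change −0.74, adjusted p 0.0696). Of 14 granule proteins, 4 rose and 2 fell (2 to 4 and 1 to 2 without 1 library, the fewest higher without AAVS1 KO replicate 1 and the fewest lower without AAVS1 KO replicate 2). A call was lost for ELANE without AAVS1 KO replicate 2 or HOTSCRAMBL KO replicate 2 (highest adjusted p 0.297), and also without the replicate block (adjusted p 0.0523).

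Of 41 lysosomal genes, 13 rose and 0 fell (median 0.56), with 5 to 8 called without 1 library, the fewest without HOTSCRAMBL KO replicate 1. CTSB, cathepsin B, stood at 628 and 628 CPM in AAVS1 KO and 2504 and 2840.3 CPM in HOTSCRAMBL KO (log2 fold change 2.09, SE 0.101, adjusted p 6.39e-14). PSAP, the precursor of the saposins, stood at 52 and 66.5 CPM in AAVS1 KO and 153 and 190.3 CPM in HOTSCRAMBL KO (log2 fold change 1.54, SE 0.183, adjusted p 1.02e-06). Cathepsin D, CTSD, rose by 1.78 and the membrane protein LAMP2 by 1.55 on the log2 scale. Each had its lowest knockout library above its highest control. The chemokine receptor CCR2, a marker of classical monocytes, stood at 224 and 344 CPM in AAVS1 KO and 1079 and 1793 CPM in HOTSCRAMBL KO (log2 fold change 2.33, SE 0.101, adjusted p 9.03e-15). It was more than 4-fold higher in both labelled pairs, and its call was lost without the replicate block (adjusted p 0.11). Of 27 monocyte surface and maturation genes, 3 rose and 1 fell, with 1 to 2 higher without 1 library, the fewest without HOTSCRAMBL KO replicate 1. CD33 was at 196 and 181 and 168 and 135 CPM (log2 fold change −0.32, adjusted p 0.165). SAMHD1, a dNTP hydrolase of myeloid cells that is counted among the interferon-stimulated genes, rose from 192 and 176 to 731 and 714 CPM (log2 fold change 1.98, SE 0.11, adjusted p 5.03e-13), within a list of 42 that had 3 higher and 1 lower (1 to 3 and 0 to 1 without 1 library, the fewest without AAVS1 KO replicate 2 and AAVS1 KO replicate 1).

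Called targets of p53 were all higher: 8 of 30 rose and 0 fell (median 0.42), 6 of 22 among genes of arrest and feedback and 2 of 8 among genes of apoptosis. CDKN1A, the p21 inhibitor of cyclin-dependent kinases, stood at 120.0 and 157 CPM in AAVS1 KO and 243 and 248 CPM in HOTSCRAMBL KO (log2 fold change 0.83, SE 0.135, adjusted p 9.44e-05). MDM2, the ubiquitin ligase that limits p53, stood at 284 and 252 CPM in AAVS1 KO and 402 and 450.3 CPM in HOTSCRAMBL KO (log2 fold change 0.67, SE 0.113, adjusted p 1.55e-04). PMAIP1, the BH3-only protein NOXA, stood at 39.9 and 52.5 CPM in AAVS1 KO and 182 and 203 CPM in HOTSCRAMBL KO (log2 fold change 2.06, SE 0.172, adjusted p 1.58e-09). The groups did not overlap in any of these. PLK2 had the largest rise of the list, from 14.2 and 16.8 to 136 and 99.3 CPM (log2 fold change 2.92), and BTG2, an antiproliferative factor, went from 21.2 and 20.3 to 44.5 and 53 CPM. BAX, a p53 target of the mitochondrial pathway, was flat at 77.2 and 105 and 74.5 and 95.9 CPM (log2 fold change −0.10, adjusted p 0.806). Between 4 and 6 members were called without 1 library, the fewest without HOTSCRAMBL KO replicate 1, and the call of BTG2 was lost without AAVS1 KO replicate 2, HOTSCRAMBL KO replicate 1 or HOTSCRAMBL KO replicate 2 (highest adjusted p 0.17). Of the apoptosis regulators outside this list, BIK rose from 23.6 and 56.8 to 130.4 and 120.1 CPM and MCL1, a guardian of the mitochondrion, fell from 339 and 318 to 205 and 193 CPM (log2 fold change −0.72, SE 0.116, adjusted p 8.07e-05).

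Of 26 immediate early genes, which respond to signals within minutes, 7 rose and 6 fell, 4 to 7 and 2 to 3 without 1 library, both fewest without AAVS1 KO replicate 1. JUN stood at 71.5 and 37 CPM in AAVS1 KO and 149.7 and 149.8 CPM in HOTSCRAMBL KO (log2 fold change 1.48, SE 0.196, adjusted p 5.53e-06). FOS, which pairs with JUN in AP-1, stood at 474 and 494 CPM in AAVS1 KO and 212 and 239 CPM in HOTSCRAMBL KO (log2 fold change −1.10, SE 0.115, adjusted p 1.09e-07). FOSB went from 271 and 234 to 102 and 97.2 CPM (log2 fold change −1.34, SE 0.136, adjusted p 6.20e-08). The JUN gene rose and both FOS genes fell in both labelled pairs, and JUNB (1.24), ATF3 (1.99) and IER5 (1.15) rose with JUN. NFKBIA, the inhibitor induced by NF-kB, stood at 24.2 and 42.6 CPM in AAVS1 KO and 158 and 134 CPM in HOTSCRAMBL KO (log2 fold change 2.13, SE 0.24, adjusted p 4.02e-07). IER3 rose from 49.4 and 39 to 185 and 153 CPM (log2 fold change 1.93) and TNF from 14.7 and 17 to 63.3 and 42.3 CPM (log2 fold change 1.72), while TNFAIP3, another NF-kB target, was at 331 and 285 and 306 and 206 CPM (log2 fold change −0.28, adjusted p 0.257). Of 30 chemokine, cytokine and NF-kB genes 6 rose and 1 fell (2 to 5 and 0 without 1 library, fewest without AAVS1 KO replicate 1), and the call of TNF was lost without AAVS1 KO replicate 1 (adjusted p 0.0816). The list's median of 0.08 became −0.09 without TMM.

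Chaperones assist protein folding, and some are induced by heat or by unfolded protein in the endoplasmic reticulum. HSPA1B, the inducible HSP70, stood at 18.4 and 18.8 CPM in AAVS1 KO and 196 and 167 CPM in HOTSCRAMBL KO (log2 fold change 3.29, SE 0.249, adjusted p 2.83e-10). DNAJB1, its co-chaperone, stood at 111 and 114 CPM in AAVS1 KO and 243 and 324 CPM in HOTSCRAMBL KO (log2 fold change 1.32, SE 0.139, adjusted p 1.29e-07). CCT5, a subunit of the chaperonin that folds actin and tubulin, stood at 405 and 304 CPM in AAVS1 KO and 1588 and 1590.2 CPM in HOTSCRAMBL KO (log2 fold change 2.18, SE 0.104, adjusted p 5.28e-14). The knockout libraries lay above the controls by about 2-fold or more in these genes. HERPUD1, of endoplasmic reticulum degradation, rose (1.18), whereas HSP90AB1 fell from 974 and 899 to 762 and 755 CPM (log2 fold change −0.30). Of 38 chaperones 9 rose and 1 fell (4 to 7 and 0 without 1 library, the fewest without AAVS1 KO replicate 1), and a call was lost for HSP90AB1 without AAVS1 KO replicate 1, AAVS1 KO replicate 2, HOTSCRAMBL KO replicate 1 or HOTSCRAMBL KO replicate 2 (highest adjusted p 0.501), and also without the replicate block (adjusted p 0.125). In the ATF4 response, DDIT4, an inhibitor of mTORC1, stood at 977 and 1400.0 CPM in AAVS1 KO and 2876 and 3473 CPM in HOTSCRAMBL KO (log2 fold change 1.43, SE 0.077, adjusted p 3.89e-13), and PPP1R15A, which reverses eIF2α phosphorylation, stood at 959.5 and 837 CPM in AAVS1 KO and 607 and 442 CPM in HOTSCRAMBL KO (log2 fold change −0.79, SE 0.0944, adjusted p 1.14e-06). The first rose and the second fell without overlap, in a list with 5 of 25 higher and 1 lower (3 to 5 and 1 without 1 library, the fewest without AAVS1 KO replicate 2), whose median of 0.07 became −0.09 without TMM.

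Called genes of mitosis were lower with 1 exception. Of 45 mitosis genes, 9 fell, 1 rose and 37 had a negative log2 fold change (median −0.61), and between 4 and 6 were called lower without 1 library, the fewest without AAVS1 KO replicate 1. CENPF, a kinetochore protein, stood at 335 and 248 CPM in AAVS1 KO and 168 and 158 CPM in HOTSCRAMBL KO (log2 fold change −0.83, SE 0.122, adjusted p 2.77e-05). SMC4, of condensin, stood at 205 and 166 CPM in AAVS1 KO and 105 and 91.3 CPM in HOTSCRAMBL KO (log2 fold change −0.92, SE 0.137, adjusted p 2.87e-05). INCENP, of the chromosomal passenger complex, stood at 167 and 145 CPM in AAVS1 KO and 65.8 and 68.2 CPM in HOTSCRAMBL KO (log2 fold change −1.21, SE 0.157, adjusted p 3.73e-06). Every control library of these genes lay above every knockout library. MKI67, the proliferation antigen, was at 317 and 289 and 282 and 234 CPM and did not pass (log2 fold change −0.24, adjusted p 0.23). CCNE2, the G1/S cyclin, rose from 138 and 131 to 256 and 313 CPM (log2 fold change 1.08, SE 0.137, adjusted p 2.72e-06). Of 21 genes in its list of G1 cyclins, CDKs and inhibitors, 2 rose and 2 fell (9.52% each). Among genes of at least 20 CPM, 10.7% rose and 11.9% fell. Without 1 library, 1 to 2 of the list were called higher and 0 to 1 lower. Both that fell, and the 1 that rose beside CCNE2, encode CDK inhibitors, so those inhibitors went both ways.

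In DNA replication 6 of 47 genes fell and 2 rose (median −0.21; 3 to 5 lower without 1 library, the fewest without AAVS1 KO replicate 1). MCM3, a helicase subunit, went from 243 and 227 to 146 and 141 CPM (log2 fold change −0.71, adjusted p 4.96e-04) and MCM7 from 215 and 187 to 132 and 108 CPM (log2 fold change −0.75, adjusted p 3.74e-04). FEN1, the flap endonuclease, rose from 81.7 and 72.4 to 153 and 167 CPM (log2 fold change 1.06, adjusted p 1.89e-05). The helicase and the nuclease thus moved apart in both labelled pairs. The share of replication genes that fell, 12.8%, was near the 11.9% of genes of at least 20 CPM. Of 42 genes of double-strand break repair, 10 fell and 3 rose, and homologous recombination had 5 of 17 lower and 0 higher (median −0.52). POLQ, the polymerase of microhomology-mediated joining, stood at 222 and 168 CPM in AAVS1 KO and 108 and 89.9 CPM in HOTSCRAMBL KO (log2 fold change −0.97, SE 0.142, adjusted p 2.16e-05). BRCA2 went from 79.3 and 78.1 to 49.5 and 46 CPM (log2 fold change −0.72), a call lost without AAVS1 KO replicate 1, AAVS1 KO replicate 2, HOTSCRAMBL KO replicate 1 or HOTSCRAMBL KO replicate 2 (highest adjusted p 0.246). Between 1 and 2 repair genes were called lower without 1 library, against 10 with all, the fewest without AAVS1 KO replicate 1. Replication-dependent histones, whose mRNAs lack a poly(A) tail, had 3 of 53 higher and 1 lower (1 to 2 and 0 to 1 without 1 library), all 5 H1 genes were negative, and none of 21 H3 and H4 genes was called.

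Splicing factors remove introns in the spliceosome or steer where it acts. In the core spliceosome list 12 of 49 fell and 4 rose, among hnRNPs 4 of 26 fell and 4 rose, and among SR proteins 4 of 16 fell and 1 rose. Taken as hnRNPs and spliceosome, 7 to 9 were called lower and 1 to 4 higher without 1 library, the fewest lower without AAVS1 KO replicate 1 and the fewest higher without HOTSCRAMBL KO replicate 2, and 1 to 3 SR proteins were called lower, the fewest without AAVS1 KO replicate 1. RBM25, a regulator of alternative splicing, stood at 761 and 555 CPM in AAVS1 KO and 358 and 280.0 CPM in HOTSCRAMBL KO (log2 fold change −1.04, SE 0.113, adjusted p 2.13e-07). SNRNP70, of the U1 snRNP, stood at 1159.7 and 1275 CPM in AAVS1 KO and 787 and 768 CPM in HOTSCRAMBL KO (log2 fold change −0.64, SE 0.0853, adjusted p 4.83e-06). SRSF11 went from 825 and 734 to 574 and 457 CPM (log2 fold change −0.60, adjusted p 5.65e-05) and SRRM2, the large speckle scaffold, from 5406 and 4968 to 4074 and 3056 CPM (log2 fold change −0.55, adjusted p 1.06e-05), the latter not called with limma-voom (adjusted p 0.12). Controls lay above knockouts throughout. HNRNPH3 rose from 224 and 213 to 375 and 375 CPM (log2 fold change 0.78, adjusted p 5.03e-05) while its paralogue HNRNPH1 fell from 825 and 687 to 539 and 477 CPM (log2 fold change −0.57, adjusted p 7.95e-05).

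Cytoskeletal genes were counted by role. Actin and its regulators had 9 of 31 higher and 1 lower, large scaffolds and motors 0 of 24 higher and 8 lower. ACTB stood at 1701 and 1773 CPM in AAVS1 KO and 2478 and 2788 CPM in HOTSCRAMBL KO (log2 fold change 0.60, SE 0.0737, adjusted p 1.54e-06). AHNAK, a giant scaffold under the membrane, stood at 2011 and 1581 CPM in AAVS1 KO and 1010.3 and 902 CPM in HOTSCRAMBL KO (log2 fold change −0.90, SE 0.0865, adjusted p 2.40e-08). MACF1, which links actin to microtubules, stood at 1205 and 1030.1 CPM in AAVS1 KO and 807 and 609 CPM in HOTSCRAMBL KO (log2 fold change −0.67, SE 0.0919, adjusted p 9.50e-06). Actin rose and both scaffolds fell with no overlap. ACTG1 (0.91), TMSB10 (1.39) and TMSB4X (0.73), which bind or form actin, rose as well, and the motor MYO18A fell (−0.95). Over all 72 genes 11 rose and 12 fell (5 to 8 and 5 to 7 without 1 library, fewest without AAVS1 KO replicate 1), and the median of 0.15 became −0.01 without TMM. Genes known from synapses had 5 of 31 lower and 0 higher (2 to 4 without 1 library, the fewest without AAVS1 KO replicate 1), led by DNM1, the neuronal dynamin, and SHANK1, a scaffold of the postsynaptic density. SHANK1 stood at 309 and 285 CPM in AAVS1 KO and 95 and 78.2 CPM in HOTSCRAMBL KO (log2 fold change −1.78, SE 0.139, adjusted p 4.85e-10).

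Glycolytic and hypoxia genes had 10 of 32 higher and 4 lower, 5 to 6 and 2 without 1 library, the fewest without AAVS1 KO replicate 1. GAPDH stood at 135 and 182 CPM in AAVS1 KO and 471 and 551 CPM in HOTSCRAMBL KO (log2 fold change 1.69, SE 0.119, adjusted p 6.12e-11). TPI1 went from 95.5 and 136 to 246 and 269.6 CPM (log2 fold change 1.16, adjusted p 8.62e-07), and PFKL, a phosphofructokinase, from 224 and 249 to 127 and 162 CPM (log2 fold change −0.71, adjusted p 3.78e-04). Both of the former rose and the phosphofructokinase fell in each labelled pair. VEGFA, the hypoxia-induced growth factor, stood at 720.1 and 699 CPM in AAVS1 KO and 369.7 and 355 CPM in HOTSCRAMBL KO (log2 fold change −0.97, SE 0.0965, adjusted p 4.40e-08). In sterol and fatty acid synthesis, 5 of 34 rose and 6 fell (1 to 4 and 1 to 3 without 1 library, fewest without AAVS1 KO replicate 1 and AAVS1 KO replicate 2). These were 14.7% and 17.6%, against 10.7% and 11.9% of genes of at least 20 CPM. The list had a median level of 39.5 CPM and a median log2 fold change of −0.002, so it had no direction as a whole. SREBF1, the regulator of fatty acid synthesis, fell from 240.0 and 293 to 135 and 150.0 CPM (log2 fold change −0.90, adjusted p 1.19e-05), and IDI1, an isomerase of the mevalonate pathway, rose from 24.3 and 24 to 73.3 and 114 CPM (log2 fold change 1.95, adjusted p 4.66e-06). Of 31 growth factor and cytokine receptors 7 rose and 0 fell (1 to 4 without 1 library, the fewest without AAVS1 KO replicate 1), TGFBR1 among them (0.87).

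The largest changes lay mostly outside these lists. Of genes with a mean of at least 20 CPM, the 12 with the largest rise included LIPG, endothelial lipase (ENSG00000101670, chromosome 18, 49560699 to 49599185), at 2.27 and 2.24 CPM in AAVS1 KO and 108 and 149 CPM in HOTSCRAMBL KO (log2 fold change 5.83, SE 0.36, adjusted p 5.40e-12). RASD1, a Ras-like protein induced by glucocorticoids, stood at 5.8 and 8.72 CPM in AAVS1 KO and 112 and 142 CPM in HOTSCRAMBL KO (log2 fold change 4.13, SE 0.286, adjusted p 3.08e-11). ARC, an activity-regulated protein of neurons, stood at 11.8 and 7.04 CPM in AAVS1 KO and 148 and 106 CPM in HOTSCRAMBL KO (log2 fold change 3.76, SE 0.272, adjusted p 5.11e-11). In all 3 each knockout library lay well above each control. LINC00499 rose from 22.4 and 12.8 to 290.1 and 210.2 CPM, ID1 from 5.96 and 2.32 to 52 and 47.2 CPM, MAFA from 7.13 and 2.08 to 79.4 and 68.2 CPM and LRP1 from 5.88 and 1.2 to 30.9 and 50.0 CPM. FZD8, a WNT receptor, went from 0.627 and 2.48 to 48.2 and 37.5 CPM and ZFP92 from 0.784 and 4.48 to 40.8 and 59.5 CPM. SLC8A1, a sodium-calcium exchanger, and SLC8A1-AS1 rose together (3.34 and 5.41), and their reads overlap on opposite strands. ACTN2, the muscle actinin, which missed the mean of 20 CPM, was at 0 and 1.72 CPM in AAVS1 KO and at 35.8 and 41.8 CPM in HOTSCRAMBL KO.

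Of the 12 with the largest fall, NCAM2, an adhesion molecule (ENSG00000154654, chromosome 21, 20998409 to 21543329), stood at 40.1 and 38.1 CPM in AAVS1 KO and 3.37 and 5.1 CPM in HOTSCRAMBL KO (log2 fold change −3.18, SE 0.41, adjusted p 3.19e-06). DNM1 stood at 198 and 176 CPM in AAVS1 KO and 45.2 and 27 CPM in HOTSCRAMBL KO (log2 fold change −2.39, SE 0.198, adjusted p 1.55e-09). WT1, a transcription factor expressed in most acute myeloid leukaemias, stood at 52.8 and 58.9 CPM in AAVS1 KO and 11.4 and 16.9 CPM in HOTSCRAMBL KO (log2 fold change −1.96, SE 0.283, adjusted p 1.85e-05). Each knockout library lay far under each control. WT1-AS, antisense to WT1, fell from 39.1 and 38.2 to 8.11 and 5.05 CPM, and the pair cannot be told apart without strand. DYSF fell from 92.6 and 83.1 to 25 and 10.1 CPM, MTSS2 from 58.8 and 57.6 to 9.54 and 13.9 CPM, EPHB4, an ephrin receptor, from 37.1 and 31 to 9.39 and 7.15 CPM and SYNPO2, an actin-binding protein, from 258 and 285 to 68.3 and 72.5 CPM. The rest were AGAP1 (−1.94), WDR97 (−1.94), MIR1915HG (−1.88) and C1orf159 (−1.96), the last not called without HOTSCRAMBL KO replicate 2 (adjusted p 0.0546). Of the 12 that rose 6 overlap another annotated gene, and of the 12 that fell 12 do, against 75.5% of genes tested.

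**Figure D4:**
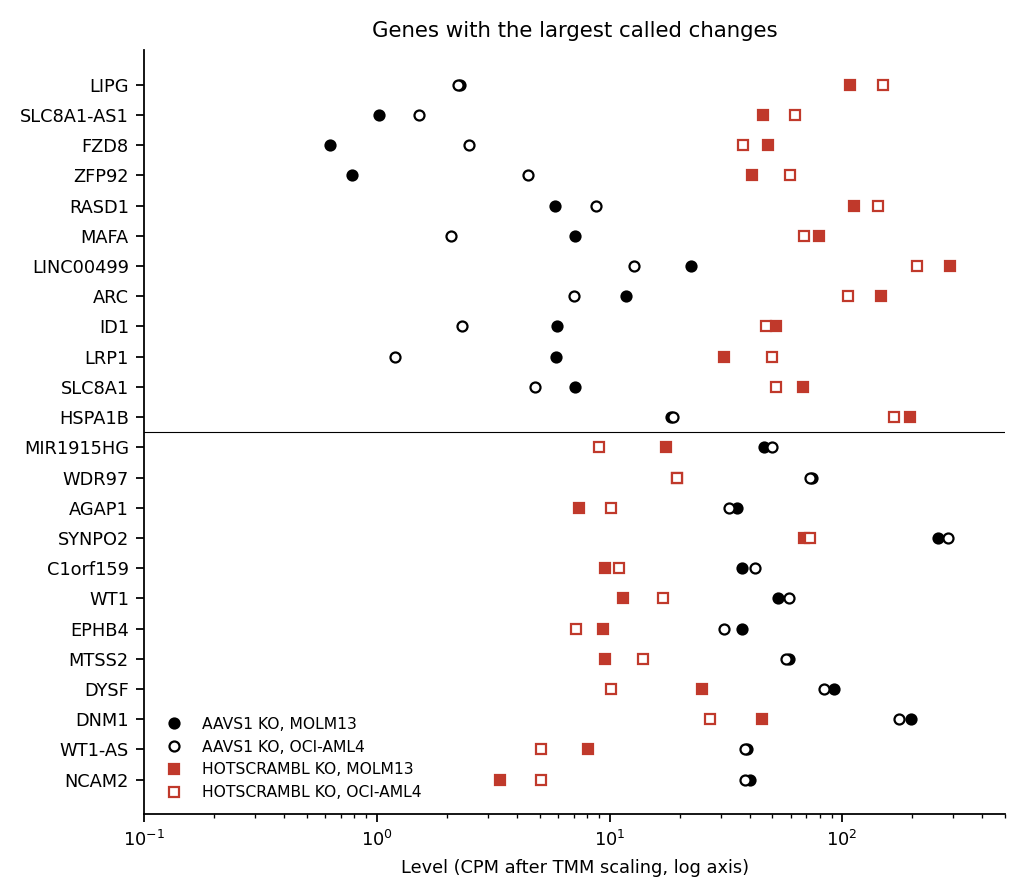
Level in CPM (log axis) in each of the 4 knockout libraries for the 12 genes with the largest called rise (above the line) and the 12 with the largest called fall (below it) among genes with a mean of at least 20 CPM. Controls (black circles) lie left of the knockouts (red squares) for the higher genes and right of them for the lower genes, with no overlap in any of the 24. Choosing called genes with the largest change favours this separation.

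The plot of the largest changes shows the spread of single libraries beside the change. The controls of LIPG and of HSPA1B nearly coincided, while those of FZD8, ZFP92 and LRP1 lay several-fold apart at levels of a few CPM. Most of the higher genes, LIPG, RASD1, ARC, ID1, MAFA, LRP1, FZD8, ZFP92 and HSPA1B among them, had both controls under 20 CPM. These passed the mean of 20 CPM only through their HOTSCRAMBL KO libraries. Of the lower genes, NCAM2, WT1, WT1-AS, MTSS2, EPHB4, AGAP1 and C1orf159 had both knockout libraries under 20 CPM and passed only through their controls. Their separation describes the values and is no further support.

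Called genes differed in length and structure. Among genes of at least 20 CPM, the quartile with the shortest exonic length (49 to 4127 bases) had 19.2% higher and 7.46% lower, and the longest (9308 to 347964 bases) 7.47% higher and 14.4% lower. With 1 to 7 exon blocks, 19.4% rose and 7.71% fell, and with 21 to 368 blocks, 5.08% rose and 18.7% fell. Of 136 protein-coding genes with 1 exon block, 25% rose and 2.94% fell. Without ribosomal protein and mitochondrial genes the shortest quartile still had 16.1% higher and 7.79% lower. Over all genes tested, where short genes are mostly rare, the shortest quartile had 2.19% higher and 0.432% lower and the longest 5.5% and 9.55%. These shares describe the genes, were not tested, and do not separate length from level or gene class.

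The knockout and the base editor share neither libraries nor controls, and the difference between their effects was tested directly. CBE called 2124 genes (8.83%), 1096 higher (4.56%) and 1028 lower (4.27%). Called with both were 398 genes higher and 340 lower, while 45 rose with KO and fell with CBE and 31 did the opposite. That makes 738 genes with the same direction, a share of 35.0% of KO calls and 34.7% of CBE calls. The difference was called for 767 genes (3.19%), 419 with a higher effect of KO (1.74%) and 348 with a lower one (1.45%), and 3399 had an unadjusted p under 0.05. Leaving out 1 of the 8 libraries left between 226 and 372 calls of a difference, the fewest without AAVS1 KO replicate 1, and of the 89 genes named here with a called difference 42 kept it whichever library was left out.

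Ribosomal proteins rose with both editors: with CBE 44 of 47 large-subunit proteins (median 1.20) and 31 of 33 small-subunit proteins (median 1.31) were higher, and the KO rise was larger for 12 and 7 of them, smaller for 0. For some p53 targets the editors differed. With CBE 3 of 30 rose and 1 fell (median −0.14), and the KO effect was higher for 7: PMAIP1 differed by 2.26 (adjusted p 3.09e-06), PLK2 by 3.41 (adjusted p 3.36e-05) and CDKN1A by 0.95 (adjusted p 0.00334). The last was not called without AAVS1 CBE replicate 1, AAVS1 CBE replicate 2, AAVS1 KO replicate 1, HOTSCRAMBL CBE replicate 1 or HOTSCRAMBL KO replicate 1 (highest adjusted p 0.104). BBC3, the other apoptosis target called higher with KO beside PMAIP1, rose with both editors. Its log2 fold change was 0.57 with KO and 0.95 with CBE, and the difference was not called (adjusted p 0.230). Most of the 30 p53 targets had no called difference. For mitosis genes, 19 of 45 rose with CBE and 0 fell (median 0.62), and the KO effect was lower for 18 of 45. CENPF had 0.56 with CBE against −0.83 with KO, a difference of −1.39 (adjusted p 4.59e-06).

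Histone genes rose with CBE (41 of 53, median 1.46) and 3 of 53 rose with KO (median 0.40), with a lower KO effect called for 13. The HOXA cluster had 1 gene higher and 0 lower with CBE (median 0.16), and the difference was called for 2 of 17, HOXA3 (−2.08, adjusted p 0.0094) and HOXA-AS2 (−1.84, adjusted p 0.002). The difference of HOXA3 was called without AAVS1 CBE replicate 2 and lost when any other library was left out (highest adjusted p 0.115), and that of HOXA-AS2 was lost without AAVS1 KO replicate 2 or HOTSCRAMBL KO replicate 1 (highest adjusted p 0.051). MEIS1 rose with CBE (0.63) and fell with KO (−0.67), a difference of −1.29 (adjusted p 5.06e-05). Lysosomal genes differed for 5 of 41, all higher with KO. SYNPO2 was the gene of the largest falls that rose with CBE (1.30, difference −3.24, adjusted p 2.82e-12). LYZ differed by 1.97 (adjusted p 8.25e-08) and HSPA1B, which fell with CBE (−1.86), by 5.15 (adjusted p 8.25e-08). The control libraries of each editor were separate, so a difference between AAVS1 KO and AAVS1 CBE enters these values too.

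**Figure D5:**
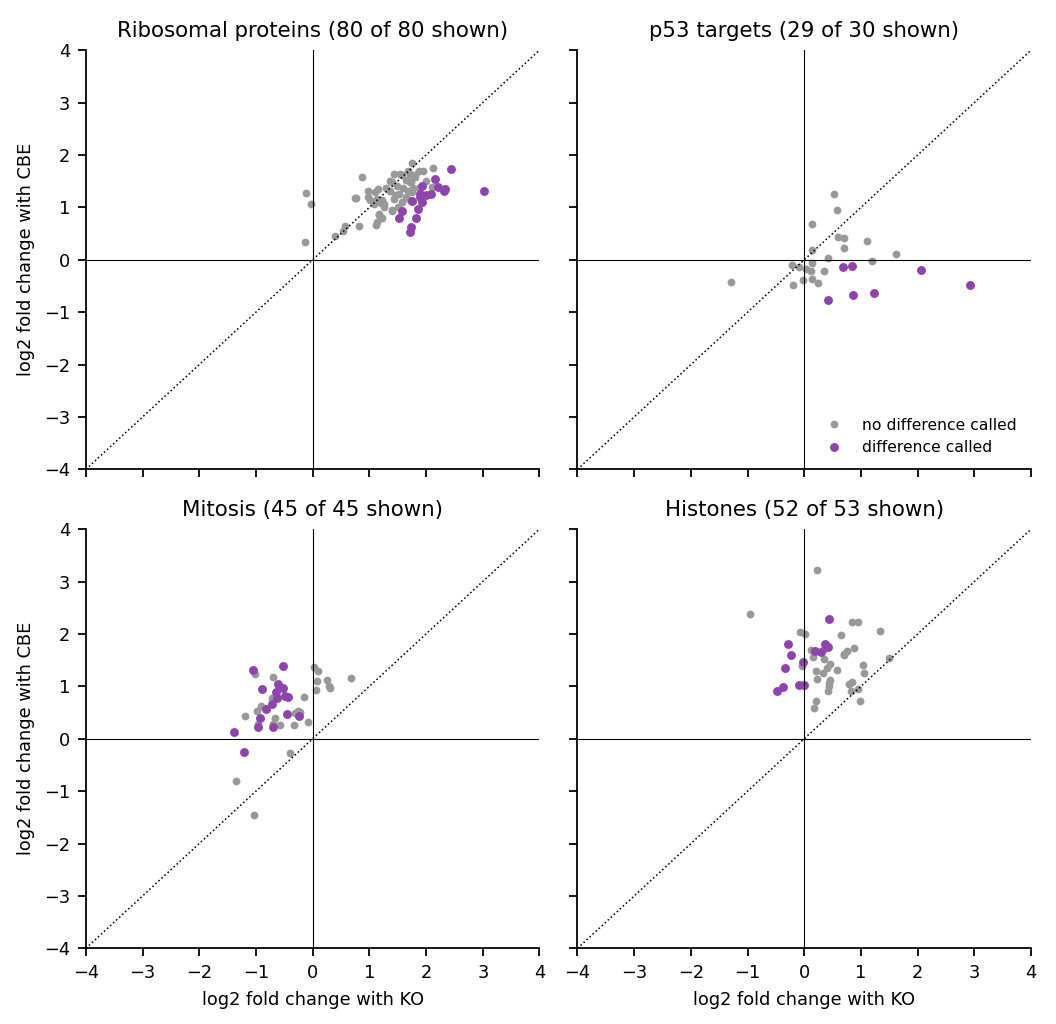
Log2 fold change of HOTSCRAMBL against AAVS1 with Cas9 knockout (horizontal axis) and with the base editor (vertical axis), 1 point per gene, for ribosomal proteins, p53 targets, mitosis genes and histones, with genes whose difference was called in purple and the dotted line marking equal effects. Genes beyond 4 on either axis are not drawn (1 p53 target and 1 histone). Ribosomal proteins lie in the upper right, mitosis genes mostly in the upper left and histones mostly above the dotted line.

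The plot of both editors shows the groups in which they moved together and apart. Ribosomal proteins had both effects positive for most members, while the median of mitosis genes was −0.61 with KO and 0.62 with CBE.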

How the data were processed

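ChIRP RNA was measured in 8 libraries. The deposited file holds raw read counts per gene, made by the authors with featureCounts 2.0.6 (Ensembl 112, GRCh38) per the file headers: paired-end input, no option to count pairs (71.8% to 74.9% of values from 1 to 20 were even), no strand option, and no option to count reads with several positions or genes. The aligner's settings and any removal of duplicates are not given in the sources used here. Of 63140 genes 35176 had a count, 62541 had a symbol, and 58126 took their class from GENCODE 29 and 392 from RefSeq. The broken records of 2 genes were rejoined, and 0 columns of other samples were present.

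Genes passing filterByExpr (minimum count 10) were tested in edgeR 4.0.16 (R 4.3.3) by the quasi-likelihood F-test, robust, with TMM factors, 4 groups and the labelled line as terms, 3 residual degrees of freedom and Benjamini-Hochberg adjustment. Levels are CPM after TMM, and the prior count for library ratios was 2. Pairing comes from the line label: deviations of same-line libraries correlated at 0.018 over all genes and 0.144 at 20 CPM or more. Such low values show little difference between the labelled lines that both groups share. The libraries, 44 gene lists (1533 genes, 1447 tested) and tests were chosen with earlier results of these data known, and lists got no set test.

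Named genes were the 12 largest called changes in each direction at 20 CPM or more, up to 6 called members per list and direction in order of p-value, up to 3 uncalled members per list with the highest level, 5 per direction with the smallest p-value for the difference between editors, and a few genes whatever their values. Outside this rule, MT-ND2, MT-RNR2, RPL41, RPS27, SNORA23 and SNORD15B were chosen after their values were seen. Alternatives were DESeq2 1.42.0, its size factors, limma-voom (limma 3.58.1), no TMM, other filters, no replicate block, only the KO libraries and leaving out each library. The older quasi-likelihood method was added after seeing the data. RefSeq start windows (GRCh38.p14) were found for 12372 symbols of genes tested. Enrichment over input was not analysed here. The result of 1 gene is not reported here.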

Additional observations from a re-analysis of the deposited data

Results flagged for a closer look

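The effect of HOTSCRAMBL targeting differed between Cas9 and the base editor, by the test of the difference itself (edgeR, Benjamini-Hochberg adjusted p under 0.05), for 89 of the genes named in the text. Each value below is the KO effect minus the CBE effect on the log2 scale. Whichever of the 8 libraries was left out, 42 of the 89 kept the call. The 8 that lost it in each of these fits were ATF3, DNMT3B, ELANE, EPHB4, GFI1, MCM3, MCM7 and TPT1. The call was lost in some of the fits for 39, which were ACTN2, BCL2, BRCA2, BTG2, CCNE2, CCT5, CDKN1A, CEBPB, CTSB, EEF1B2, EIF3A, FOS, HERPUD1, HOXA-AS2, HOXA3, ID1, ID2, IER5, INCENP, IRF8, JUN, KLF6, LIPG, LRP1, MALAT1, MDM2, MIR1915HG, MKI67, MT-RNR2, MTSS2, NFKBIA, PPP1R12C, PSAP, RBM25, RN7SL1, RPLP2, SLC8A1-AS1, SNORD15B and TNF. Each editor had its own control libraries, so a difference between controls cannot be told apart from one between targets.

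Genes of translation with a larger effect of KO were RPL8 (0.71), RPLP2 (0.62), RPS18 (0.98), RPS27 (1.71), EEF1B2 (0.92) and TPT1 (0.61), and EIF3A had a lower one (−0.75). Mitochondrial RNAs with a higher KO effect were MT-ND5 (2.19), MT-ND4L (1.36), MT-ND6 (1.06) and MT-ND2 (0.70), and those with a lower one were MT-CO2 (−0.63) and MT-RNR2 (−0.44). Non-coding RNAs with a higher KO effect were XACT (2.11), MALAT1 (0.59), SNORD15B (0.63), RN7SL1 (0.39) and LINC00499 (2.59), and MIR1915HG (−1.71) had a lower one.

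In the leukaemia programme the KO effect was lower for HOXA3 (−2.08), HOXA-AS2 (−1.84), MEIS1 (−1.29), PBX3 (−0.71), BCL2 (−0.62), WT1 (−2.06), WT1-AS (−2.92), GFI1 (−0.57), KLF6 (−1.36) and DNMT3B (−1.42), and higher for ID2 (1.87). Among myeloid, granule and lysosomal genes it was higher for LYZ (1.97), CHI3L1 (2.25), CCR2 (1.43), CEBPB (1.46), IRF8 (0.64), SAMHD1 (2.12), CTSB (0.78) and PSAP (1.12), and lower for AZU1 (−0.72) and ELANE (−0.64).

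Stress genes with a higher KO effect were CDKN1A (0.95), MDM2 (0.82), PMAIP1 (2.26), PLK2 (3.41), BTG2 (1.86), JUN (1.39), JUNB (2.09), ATF3 (1.90), IER3 (2.00), IER5 (1.18), NFKBIA (1.99), TNF (2.39), HSPA1B (5.15), DNAJB1 (1.81), HERPUD1 (1.24) and CCT5 (0.56), and those with a lower one were FOS (−0.65), DDIT4 (−0.84) and HSP90AB1 (−0.89). Genes of division, repair and splicing with a lower KO effect were CENPF (−1.39), SMC4 (−1.32), INCENP (−0.96), MKI67 (−0.67), MCM3 (−0.73), MCM7 (−0.68), BRCA2 (−1.17) and RBM25 (−0.74), and CCNE2 (0.71) had a higher one.

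Of the remaining genes the KO effect was higher for LIPG (4.75), SLC8A1 (5.07), SLC8A1-AS1 (5.95), LRP1 (3.82), ID1 (6.45), RASD1 (7.45) and PPP1R12C (0.62), and lower for NCAM2 (−2.79), DNM1 (−1.73), DYSF (−1.91), MTSS2 (−1.63), EPHB4 (−1.69), SHANK1 (−1.92), SYNPO2 (−3.24), SREBF1 (−1.02) and VEGFA (−1.16). The values for ARC (8.20), MAFA (11.78), FZD8 (10.60), ACTN2 (6.17) and ANGPT1 (−9.23) rest on groups with few or no counts, depend on the prior count of the fit and are no bounds.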

How the results depend on the processing

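Under 17 alternatives, all 150 called genes named in the text kept their direction and 120 kept their call in each. BBC3 is not among the genes counted in this section. Of the 2108 genes called with KO, 0 changed sign in any of them. The alternatives reuse the same libraries and the genes were chosen as called, so kept signs are no independent support. DESeq2 called 4231 (2046 higher, 2185 lower) and 2275 for the difference between editors (1222 higher, 1053 lower with KO). A fit of only the 4 KO libraries called 780 (491 higher, 289 lower). Without TMM 1695 were lower, and MT-CO2 changed from 0.12 to −0.038. With 1 library left out, the calls were 677 to 1674 with KO (426 to 888 higher, 251 to 821 lower) and 226 to 372 for the difference (137 to 213 higher, 89 to 159 lower). Fits with fewer libraries have fewer residual degrees of freedom, and where leaving out a library left a group with 1 library, that library was assumed to vary like the others.

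The libraries are paired by labelled line. With no replicate block, 1736 genes were called with KO, 82.1% of the main calls among them, and 503 for the difference (216 lower), and 7 of the genes named in the text lost their call. DESeq2 size factors, limma-voom, the older quasi-likelihood method, no filter and a mean of at least 20 CPM left the counts within 1.5 times of the main ones. With 2 libraries a group, p-values cover the spread between these libraries only.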

Other observations

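HLA-B, a class I heavy chain, stood at 161 and 156 CPM in AAVS1 KO and 305 and 375 CPM in HOTSCRAMBL KO (edgeR log2 fold change 1.10, adjusted p 3.94e-07), 1 of 2 class I genes of 16 that rose (12.5%, against 4.51% of all genes), beside 1 that fell (6.25%, against 4.25%). Among genes of at least 20 CPM, nearer the class I list's median level of 37.4 CPM, 10.7% rose and 11.9% fell. Without any 1 knockout library 1 class I gene was called higher and 0 to 1 lower. CD74, the invariant chain of class II, went from 23.8 and 47.7 to 57.3 and 90.0 CPM and was the 1 gene called among 6 class II genes (16.7%). Calls were lost for CD74 without AAVS1 KO replicate 1 or HOTSCRAMBL KO replicate 2 (highest adjusted p 0.117). With the base editor 8 of 16 class I genes rose and 1 fell, and the difference of the effects was called for 1 gene, lower with KO. S100A11, a calcium-binding protein, rose from 11.6 and 17 to 56.8 and 64.6 CPM (log2 fold change 2.09, adjusted p 4.86e-06), 1 of 7 S100 genes tested. SLC7A5, a large amino acid transporter, rose from 287 and 364 to 498 and 532 CPM (log2 fold change 0.67, adjusted p 6.57e-05), while 0 of 16 genes of the mTORC1 pathway rose and 2 fell, neither of them with any 1 knockout library left out. Of 20 cytosolic tRNA synthetases 1 rose and 0 fell with KO, against 8 and 0 with CBE, and the KO effect was lower for 3.

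By chromosome, among genes of at least 20 CPM, the share called higher ran from 6.25% of 64 genes on chromosome 21 to 15.2% of 323 genes on chromosome 8, and 73.1% of 26 mitochondrial genes were higher. The share called lower ran from 6.82% of 220 genes on chromosome 4 to 21.9% of 64 genes on chromosome 21, and was 0% for mitochondrial genes. These shares were not tested.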
